A study of Mus musculus with 8 samples.

Results

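The liver's extracellular matrix genes were examined here as a set of 35: the collagens of types I, III, IV, V, VI, XIV, XV and XVIII, the proteins that sit with them in fibres and basement membranes, and the enzymes, inhibitors and growth factors that build or remodel matrix. They were taken by name from the 21252 gene symbols to which the array's probes could be assigned. RNA from whole livers of 8 male mice was hybridised to Agilent one-colour microarrays, 1 array per mouse. In 4 mice oxaliplatin had been injected intraperitoneally once a week over 6 weeks to bring on hepatic sinusoidal obstruction syndrome, damage to the liver's small vessels that is known from patients given this platinum drug. The other 4 were normal mice labelled control. The labels used here give neither strain, age nor dose, and do not say whether the control mice received a vehicle. The study asked how liver gene expression differed between the model and the control mice.

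Collagen is made as procollagen chains that are hydroxylated, folded into a triple helix, secreted, trimmed and crosslinked by lysyl oxidases. In the liver the hepatic stellate cell, which lies between the hepatocytes and the sinusoidal endothelium, is the main source of fibrillar collagen once it turns into a myofibroblast. Basement membrane chains of type IV come from endothelial and stellate cells, metalloproteinases cut matrix proteins, TIMP proteins inhibit them, and transforming growth factor beta is the best known signal that raises collagen transcription in liver fibrosis.

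Values are log2 signals relative to the 75th percentile of each array, so 0 is the signal that 75% of the array's probes do not exceed, and differences are oxaliplatin minus control. Between 27.2% and 40.9% of the probes stood well above background on an array, the fewest on oxaliplatin replicate 2, and no spot was saturated. All 4 oxaliplatin arrays lay on 1 slide, scanned apart from the slide that held all 4 control arrays, and the effect of slide or scan cannot be told apart from that of the group. Control replicate 4 stood apart: its correlation with the other control arrays was 0.961 to 0.980, against 0.984 to 0.989 among those arrays. The processed signal of the median probe was 8.90 to 12.2 on the oxaliplatin arrays and 5.49 to 7.05 on the control arrays, so dim probes read higher in the oxaliplatin group. Platinum drugs are known to induce p53 target genes, yet Cdkn1a, the cell cycle inhibitor p21, was lower by 3.61 ± 0.66 (SE, n = 4 arrays each; limma adjusted p = 0.0117) on the arrays labelled oxaliplatin, and Phlda3 was lower by 3.57 ± 0.17 (limma adjusted p = 0.000214). Every direction below follows the labels. The hepatocyte marker Alb lay between 11.18 and 11.30 on the oxaliplatin arrays and between 10.57 and 10.72 on the control arrays. In whole tissue, fewer cells of a type and less RNA per cell cannot be told apart.

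None of the genes that could be tested, 30 of the 35, passed the test for a difference between the groups. Of the 30 that were bright enough to test, 0 were called higher and 0 lower by limma at an adjusted p under 0.05, over 13913 genes of which 6.99% were called higher and 11.6% lower, 18.6% in either direction. At an unadjusted p under 0.05 there were 5, 2 of them higher (Col1a1 and Col3a1) and 3 lower (Col18a1, Nid1 and Mmp14), where 36% of all genes tested passed. The differences ran from -0.82 to 1.24 with a median of 0.07, against a median of -0.09 over all genes, and 18 were positive and 12 negative. Only Col1a1 and Col3a1 differed by at least 1, that is by at least 2-fold, where 6.38% of all genes did. The 95% confidence interval of the difference included 0 for 25 of the 30 members, and its width ran from 0.45 for Col18a1 to 2.71 for Col15a1, where it reached from -1.42 to 1.29. Lox, Mmp9, Mmp12, Mmp13 and Tgfb2 were not tested, because none of their probes cleared the background on 4 or more of the 8 arrays.

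**Figure D1:**
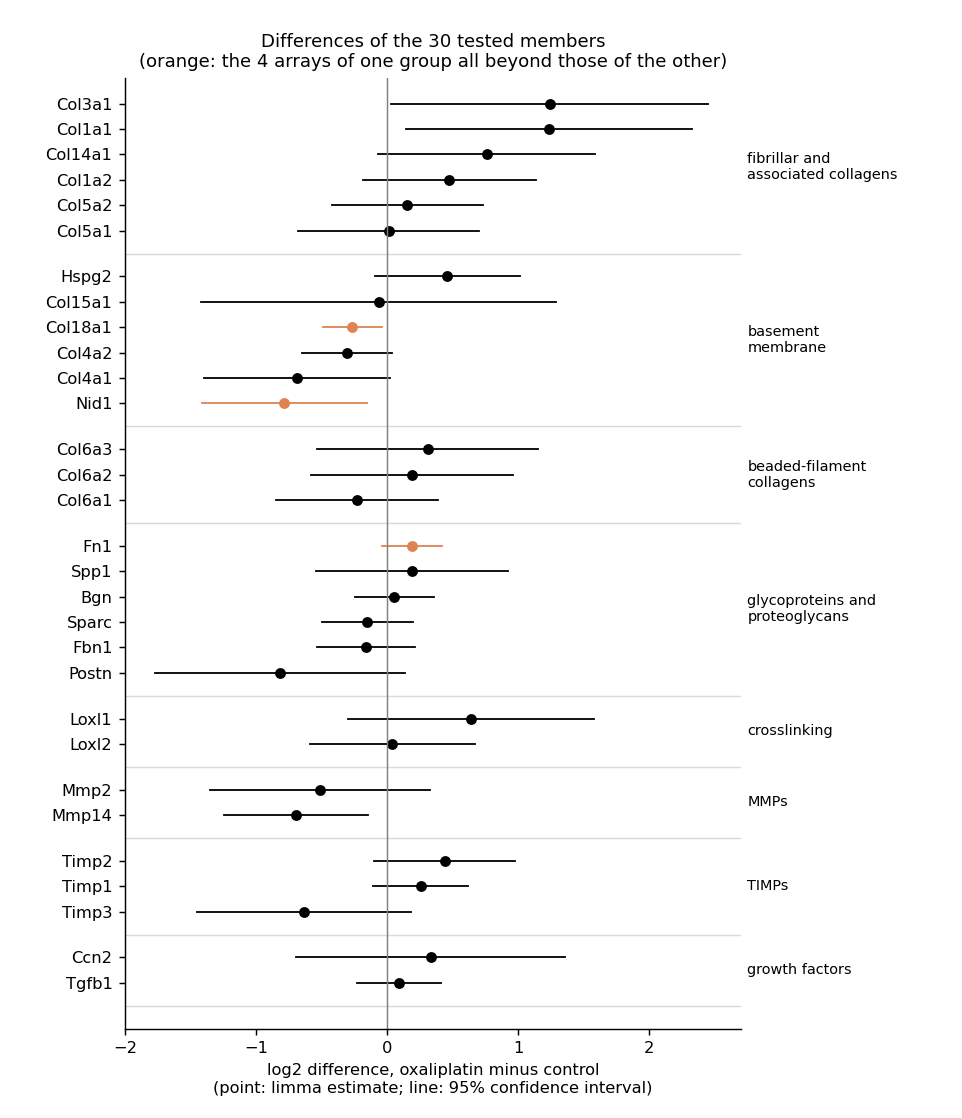
Log2 difference between 4 oxaliplatin and 4 control arrays for the 30 members tested, grouped by role, with the limma estimate as a point and its 95% confidence interval as a line. The fibrillar Col3a1 and Col1a1 lie farthest to the right at 1.24 each, Postn lies farthest to the left at -0.82, and orange marks Nid1, Col18a1 and Fn1, whose groups did not overlap.

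The fibril-forming collagens Col1a1 and Col3a1 gave the largest positive differences among the members tested, with standard errors of about 0.5. Type I collagen, the main fibre of scar tissue, is built from the chains of Col1a1 and Col1a2, and type III collagen, encoded by Col3a1, forms the thinner reticular fibres. Col1a1 stood at 1.18, 1.30, 1.52 and 2.29 on the oxaliplatin arrays, against 1.30, 0.58, 0.51 and -1.05 on the control arrays. The groups met at control replicate 1, which lay level with the lower oxaliplatin arrays, while control replicate 4 lay far below every other array. The difference was 1.24 ± 0.48 (SE, n = 4 each; 95% confidence interval 0.15 to 2.32; limma adjusted p = 0.101), a fold of 2.36 that did not pass. Col3a1 stood at 2.87, 3.06, 3.28 and 4.12 on the oxaliplatin arrays, against 2.62, 3.004, 2.26 and 0.49 on the control arrays. Here too oxaliplatin replicate 4 was highest and control replicate 4 lowest, and the difference was 1.24 ± 0.53 (95% confidence interval 0.03 to 2.45; limma adjusted p = 0.131). Col1a2 was brighter and flatter, at 3.80, 3.78, 3.97 and 4.28 on the oxaliplatin arrays and 3.93, 3.97, 3.39 and 2.65 on the control arrays. Control replicates 1 and 2 lay within the oxaliplatin range, and the difference of 0.47 ± 0.29 did not pass (limma adjusted p = 0.269).

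Among the minor fibrillar partners, Col14a1, a collagen that decorates the surface of fibrils, stood at 4.64, 4.58, 4.61 and 5.24 on the oxaliplatin arrays and 4.22, 4.78, 4.10 and 2.93 on the control arrays. Its groups overlapped through control replicate 2, and the difference was 0.76 ± 0.36 (limma adjusted p = 0.168). The type V chains among the members, which start fibril assembly, did not pass. Col5a3, a type V chain outside the members, rose by 1.24 ± 0.36 with overlapping groups (limma adjusted p = 0.0468). Col5a1 differed by 0.01 ± 0.30 at its brightest probe (limma adjusted p = 0.983) and by 0.74 ± 0.42 at its custom probe (limma adjusted p over probes = 0.239), and Col5a2 differed by 0.15 ± 0.25 (limma adjusted p = 0.698). The 95% confidence intervals of the genes' brightest probes, -0.68 to 0.70 and -0.42 to 0.73, leave room for either direction. All 6 fibrillar members had a positive difference, with a median of 0.62, and control replicate 4 was the lowest control array in 6 of 6. Without that array 4 of the 6 were positive with a median of 0.30. Col1a1 then differed by 0.77, Col3a1 by 0.71 and Col14a1 by 0.40, while Col5a1 stood at -0.24 and Col5a2 at -0.004. When each array was centred on its median, which moved the median of all genes to -0.71, Col1a2, Col5a1 and Col5a2 were also negative, and after normexp background correction Col5a1 was.

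The chain that forms a collagen helix can be read in a probe for Col5a1, shown because in a triple helix glycine returns after each pair of other residues. The 60 bases lie in the coding sequence across an exon junction (chr2:27842243-27844666, mm9, plus strand), and capitals mark the GGN glycine codons, which fill all 6 of the positions where one is due. This probe was itself too dim to test, being well above background on 1 oxaliplatin array and 2 control arrays.
Col5a1: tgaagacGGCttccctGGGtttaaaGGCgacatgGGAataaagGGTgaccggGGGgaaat

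Not every probe for a collagen was detected. Col1a1 had 4 probes. The brightest begins at base 4602 of the transcript, and a custom probe, whose position the files do not give, differed by 1.57 ± 0.46 (limma adjusted p over probes = 0.048); both were detected. The probes that begin at bases 3909 and 228 were well above background on none of the 8 arrays. The undetected probe at base 3909 is shown because it targets a coding exon, in the stretch that encodes the propeptide trimmed off outside the cell (chr11:94812052-94812111, mm9, plus strand).
Col1a1: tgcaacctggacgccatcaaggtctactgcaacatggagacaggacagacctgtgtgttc
The same held for Col3a1, whose probe at base 350 was undetected while the probe at base 4601 was detected on all 8 arrays, for Col14a1 at base 628, and for Col6a3 at bases 2197 and 5197. A Col15a1 probe at base 4554 was undetected as well, though it lies beyond the tested probe at base 4384. Why these probes were dim was not tested, and levels of different probes are not compared here.

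**Figure D2:**
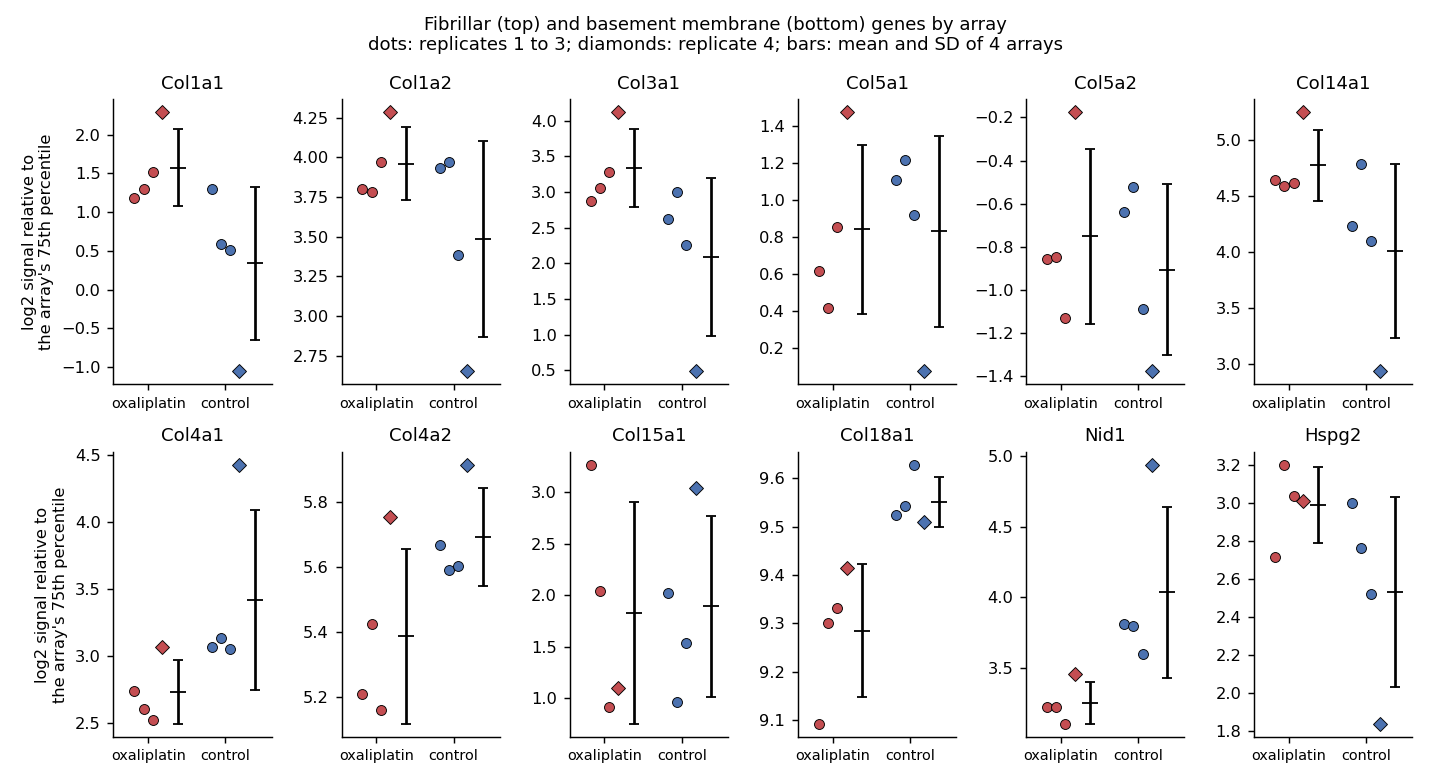
Log2 signal relative to the array's 75th percentile for 6 fibrillar or fibril-associated collagens (top) and 6 basement membrane genes (bottom), with the 4 oxaliplatin arrays left and the 4 control arrays right in each panel and the bars giving mean and SD. Replicate 4 is drawn as a diamond: in the control group it is lowest in all 6 panels of the top row, and highest for Col4a1, Col4a2, Col15a1 and Nid1.

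The basement membrane members leaned the other way at their brightest probes, while basement membrane genes outside the members went in both directions, as given below. Of the 6, 5 had a negative difference, with a median of -0.29, and Nid1 and Col18a1 separated the groups completely without passing the test. Nid1, the nidogen that links laminin to type IV collagen, stood at 3.22, 3.22, 3.11 and 3.46 on the oxaliplatin arrays, against 3.81, 3.79, 3.60 and 4.94 on the control arrays. All 4 oxaliplatin arrays lay below all 4 control arrays, and control replicate 4 was far above the rest. The difference was -0.78 ± 0.28 (95% confidence interval -1.41 to -0.15; limma adjusted p = 0.080). Without control replicate 4 the difference was -0.48 ± 0.12, which passed (limma adjusted p = 0.034). Col18a1, whose protein carries the endostatin fragment at its end and is abundant in liver, stood at 9.09, 9.30, 9.33 and 9.41 on the oxaliplatin arrays, against 9.52, 9.54, 9.63 and 9.51 on the control arrays. The groups did not overlap, though the difference was only -0.27 ± 0.10 (limma adjusted p = 0.089). Complete separation was seen in 3 of the 30 members, 1 higher and 2 lower, where 9.26% of all genes tested lay entirely higher and 18.4% entirely lower, 27.7% in either direction.

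Type IV collagen forms the network of every basement membrane. Col4a1 stood at 2.74, 2.605, 2.52 and 3.06 on the oxaliplatin arrays, against 3.06, 3.13, 3.05 and 4.42 on the control arrays. Only oxaliplatin replicate 4 reached the control range, and the difference was -0.69 ± 0.31 (limma adjusted p = 0.151). Its partner chain Col4a2 stood at 5.21, 5.42, 5.16 and 5.75 on the oxaliplatin arrays, against 5.67, 5.59, 5.604 and 5.91 on the control arrays. Again only oxaliplatin replicate 4 lay among the control values, and the difference was -0.31 ± 0.15 (limma adjusted p = 0.180). All 3 probes of each of these genes had a negative difference, from -0.69 to -0.46 for Col4a1 and from -0.44 to -0.31 for Col4a2. Col15a1, a collagen of the vessel wall's basement membrane, scattered within both groups, from 0.91 to 3.26 on the oxaliplatin arrays and from 0.97 to 3.04 on the control arrays, and differed by -0.06 ± 0.59. Hspg2, which encodes the proteoglycan perlecan, was the exception in sign at 0.46 ± 0.24 (limma adjusted p = 0.205). Without control replicate 4, 4 of the 6 remained negative with a median of -0.26, Col15a1 turning to 0.32.

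Stretches upstream of 3 of these genes are shown because Col1a2 and Col3a1 had the same highest and lowest arrays while Nid1 ran opposite to them on control replicate 4. Each is the 250 bases before the RefSeq transcription start on GRCm38.p6: chr6:4505368-4505617 (plus strand) for Col1a2, chr1:45311288-45311537 (plus strand) for Col3a1 and chr13:13437352-13437601 (plus strand) for Nid1. Capitals mark matches on either strand to the TATA box letters TATAAA, to the CCAAT box, to GGGCGG, the core bound by Sp1, and to the AP-1 element TGANTCA.
Col1a2: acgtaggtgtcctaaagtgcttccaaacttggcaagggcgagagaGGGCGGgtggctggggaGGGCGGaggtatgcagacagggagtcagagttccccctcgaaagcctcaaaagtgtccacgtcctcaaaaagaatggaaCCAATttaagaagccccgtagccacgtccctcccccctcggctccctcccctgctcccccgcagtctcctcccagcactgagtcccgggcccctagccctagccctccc
Col3a1: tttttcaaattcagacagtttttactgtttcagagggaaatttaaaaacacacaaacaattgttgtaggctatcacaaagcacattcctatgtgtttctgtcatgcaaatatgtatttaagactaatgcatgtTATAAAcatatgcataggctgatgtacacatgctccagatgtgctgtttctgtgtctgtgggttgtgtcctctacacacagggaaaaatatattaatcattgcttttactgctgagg
Nid1: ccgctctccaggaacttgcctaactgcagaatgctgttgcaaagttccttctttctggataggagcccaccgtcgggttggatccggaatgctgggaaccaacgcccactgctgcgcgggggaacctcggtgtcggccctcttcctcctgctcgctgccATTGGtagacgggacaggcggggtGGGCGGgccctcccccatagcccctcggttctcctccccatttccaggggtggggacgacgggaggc
Col1a2 held 1 CCAAT and 2 GGGCGG matches, Col3a1 held 1 TATAAA match, and Nid1 held 1 CCAAT, read on the opposite strand, and 1 GGGCGG match. Over 300-base windows that run on to 50 bases past the start, 30 windows of 25 members were available. TATAAA was found in 6 of them (20%, against 13.6% of all 32851 RefSeq promoters), CCAAT in 11 (36.7%, against 37.4%), GGGCGG in 16 (53.3%, against 35.7%) and TGANTCA in 3 (10%, against 7.81%). These shares are descriptions of letters in a window and were not tested.

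The beaded-filament collagen of type VI, which surrounds cells in most connective tissues, followed the array pattern, and no chain passed. Col6a1 differed by -0.23 ± 0.27, Col6a2 by 0.19 ± 0.34 and Col6a3 by 0.31 ± 0.37, with limma adjusted p between 0.575 and 0.725. Control replicate 4 was the lowest control array for all 3, and without it the values were -0.48, -0.10 and -0.06. Among arrays of the first run name alone, in contrast, all 3 were positive, at 0.016, 0.51 and 0.56. Without oxaliplatin replicate 4, which that comparison keeps, 2 were positive and 1 negative, with a median of 0.009.

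Among the glycoproteins, Fn1, fibronectin, which hepatocytes make in bulk for plasma, was the only member whose oxaliplatin arrays all lay above the control arrays. Its brightest probe read 9.97, 9.69, 9.70 and 9.82 on the oxaliplatin arrays, against 9.66, 9.49, 9.68 and 9.58 on the control arrays. The margin between the groups was thin, and the difference was 0.19 ± 0.10 (95% confidence interval -0.04 to 0.42; limma adjusted p = 0.203). The other 3 Fn1 probes pointed the opposite way, at -0.50 ± 0.20, -0.48 ± 0.22 and -0.38 ± 0.26, and none passed over probes. The sequences of 3 of the 4 are shown because their signs disagree: the probes at base 7252 (chr1:71637422-71639659, mm9, minus strand, across an exon junction) and at base 2751 (chr1:71673888-71674646, mm9, minus strand, across an exon junction) read lower on oxaliplatin arrays, and the custom probe, of which 30 bases are given, read higher.
Fn1, base 7252: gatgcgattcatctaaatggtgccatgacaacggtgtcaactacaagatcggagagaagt
Fn1, base 2751: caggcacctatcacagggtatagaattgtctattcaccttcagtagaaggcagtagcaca
Fn1, custom: acgctttactactgtggaaagacaagtgtt

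Postn, periostin, a matricellular protein of activated fibroblasts, had the most negative difference of the members. It stood at 1.66, 1.63, 1.51 and 2.38 on the oxaliplatin arrays, against 3.004, 3.55, 2.38 and 1.503 on the control arrays. Control replicates 1 and 2 lay clearly above every oxaliplatin array, and control replicate 3 by a hair, at 2.383 against 2.382 on oxaliplatin replicate 4. Control replicate 4 alone made the groups overlap, level with the lowest oxaliplatin array, and the difference was -0.82 ± 0.42 (limma adjusted p = 0.194). Without control replicate 4 it was -1.19 with an adjusted p of 0.042. A second Postn probe differed by -0.12 ± 0.47. Fbn1, fibrillin, the core of elastic microfibrils, differed by -0.16 ± 0.16, Bgn, the small proteoglycan biglycan, by 0.06 ± 0.13, and Spp1, osteopontin, a secreted phosphoprotein of ductal cells and macrophages, by 0.19 ± 0.32. The 95% confidence interval of Bgn ran from -0.25 to 0.36, the narrowest of these 3.

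Sparc, a collagen-binding glycoprotein, and Col18a1 showed how far the probe mattered. The brightest Sparc probe, at base 980 (chr11:55209449-55212106, mm9, minus strand, across an exon junction), differed by -0.15 ± 0.15 (limma adjusted p = 0.508). The probe at base 2229 (chr11:55208013-55208072, mm9, minus strand) differed by 0.77 ± 0.19, which passed over probes (limma adjusted p = 0.029). For Col18a1 the catalogue probes at bases 4088 and 3843 differed by -0.27 ± 0.11 and -0.26 ± 0.10, while a custom probe differed by 0.58 ± 0.16 and passed over probes (limma adjusted p = 0.038). That custom probe is annotated to another RefSeq transcript of the gene than the catalogue probes. The probe at base 3843 lies within an exon (chr10:76516065-76516124, mm9, minus strand). The dissenting probes are shown as 30 bases each because both hold AATAAA, the polyadenylation signal that lies near the end of most messages, marked in capitals.
Sparc, base 980: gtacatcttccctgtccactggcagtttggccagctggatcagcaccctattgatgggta
Sparc, base 2229: gacaagtctttcaaAATAAAaagtaacaac
Col18a1, base 3843: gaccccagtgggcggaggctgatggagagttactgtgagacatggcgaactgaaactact
Col18a1, custom: aaagaggcaccaAATAAAaatgacatttta
AATAAA was present in 11 of the 33 custom probes of the members and in 2 of the 54 catalogue probes. Whether its presence in a probe goes with the direction of the difference was not tested. Of the 87 member probes, 60 were bright enough to test and 3 passed over probes (5%), all 3 higher, namely those for Col1a1, Sparc and Col18a1 given above. Over all 54636 probes tested, 18.4% passed, and 7.42% of all those tested passed as higher. In 6 of the 24 members with at least 2 such probes the signs differed: Col18a1, Col6a2, Fn1, Sparc, Bgn and Tgfb1. Of the 27 member probes too dim to test, 22 had a positive difference and 5 a negative one, in the direction of the higher signal of dim probes on the oxaliplatin arrays.

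**Figure D3:**
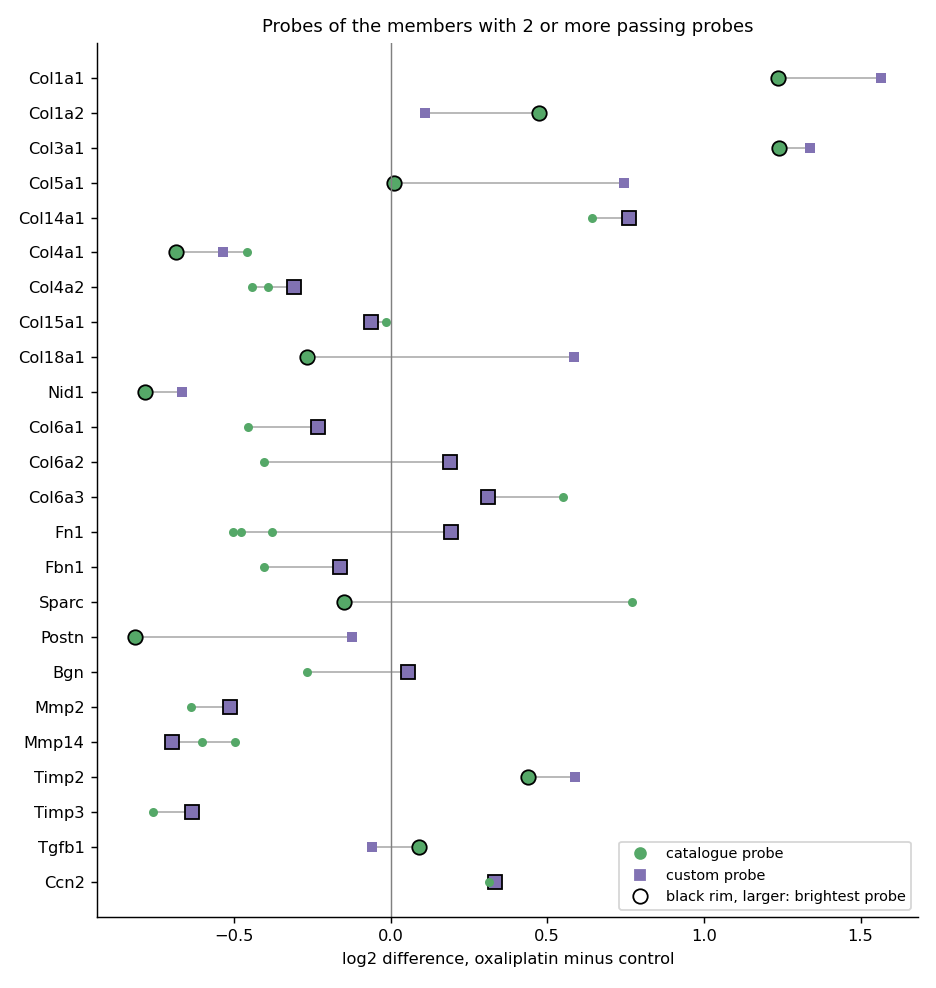
Log2 difference, oxaliplatin minus control, of every probe that passed the brightness filter, for the 24 members with at least 2 such probes; circles are catalogue probes, squares custom probes, and a black rim marks the brightest probe, which stands for the gene. The probes of Col4a1, Col4a2, Nid1, Mmp14 and Timp3 lie on the negative side, those of Col1a1, Col3a1 and Col14a1 on the positive side, and those of Col18a1, Fn1 and Sparc straddle 0.

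The lysyl oxidases crosslink collagen and elastin. Loxl1 differed by 0.64 ± 0.41 (limma adjusted p = 0.295) and Loxl2 by 0.04 ± 0.28 (limma adjusted p = 0.934). Neither separated the groups, and Loxl2 turned to -0.14 without control replicate 4. Both probes of Lox itself were too dim for a test, with the brighter one well above background on 2 oxaliplatin arrays and 1 control array.

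Of the metalloproteinases among the members only the collagenase activator Mmp14 and the gelatinase Mmp2 could be tested, and both were lower in the mean. Mmp14, a membrane-bound protease, had the smallest adjusted p of all members. It stood at 6.85, 6.42, 6.15 and 5.69 on the oxaliplatin arrays, against 6.87, 6.83, 6.88 and 7.32 on the control arrays. Oxaliplatin replicate 1 lay within the control range and the other 3 below it, and the difference was -0.70 ± 0.24 (95% confidence interval -1.25 to -0.15; limma adjusted p = 0.0757). All 3 of its probes were lower, by -0.70, -0.60 and -0.50. Oxaliplatin replicates 1 and 2, the highest of the 4, carry another run name than the remaining 6 arrays. A fit with that name as covariate gave -1.06, which passed (limma adjusted p = 0.036, where 6.61% of all genes passed). The difference in that fit rests on oxaliplatin replicates 3 and 4 alone. Comparing only arrays of the first run name gives the same difference by construction, and there Mmp14 did not pass. Without oxaliplatin replicate 1 it passed at -0.89 (limma adjusted p = 0.037). Mmp2 stood at 0.68, 0.06, 1.06 and 0.90 on the oxaliplatin arrays, against 1.71, 1.76, 1.09 and 0.20 on the control arrays. Control replicate 4 was again the array that joined the ranges, and the difference was -0.51 ± 0.37 (limma adjusted p = 0.347). The macrophage and neutrophil enzymes Mmp12, Mmp13 and Mmp9 were well above background on at most 2 of the 8 arrays at any probe.

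Of the inhibitors, Timp1, known to rise in many liver injuries, stood at 2.08, 2.15, 2.47 and 2.17 on the oxaliplatin arrays, against 1.96, 1.63, 2.32 and 1.93 on the control arrays. The groups overlapped at control replicate 3, and the difference was 0.26 ± 0.16 (95% confidence interval -0.11 to 0.62; limma adjusted p = 0.279). Timp2, a partner of Mmp14 in activating Mmp2, differed by 0.44 ± 0.23 (limma adjusted p = 0.212), and Timp3, the matrix-bound inhibitor, by -0.63 ± 0.36 (limma adjusted p = 0.237). Control replicate 4 was the lowest control array for Timp2 and the highest for Timp3, and without it the values were 0.21 and -0.27.

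The growth factors showed no difference between the groups that exceeded their spread. Tgfb1 stood at 1.01, 1.21, 0.80 and 0.59 on the oxaliplatin arrays, against 0.90, 0.78, 0.85 and 0.73 on the control arrays. The control values sat inside the oxaliplatin range, and the difference was 0.09 ± 0.14 (95% confidence interval -0.23 to 0.41; limma adjusted p = 0.676). Within the first run name, which holds oxaliplatin replicates 3 and 4 and all control arrays, Tgfb1 was at -0.12. Ccn2, connective tissue growth factor, named Ctgf in the deposited files, a direct target of the Hippo pathway and of TGF-beta, differed by 0.33 ± 0.45 (limma adjusted p = 0.631). Tgfb2 was well above background on 1 oxaliplatin array at each of its probes and on no control array.

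Many members had their extremes on the same arrays. Control replicate 4 was the lowest control array for 21 of the 30 members and the highest for 7, against 38.9% and 29.96% of all genes. Oxaliplatin replicate 4 was the highest oxaliplatin array for 23 of the 30, against 32.2% of all genes. The difference of control replicate 4 from the mean of the other control arrays was most negative for Col3a1 at -2.14 and Col1a1 at -1.85. It lay between -1.48 and -1.43 for Postn, Col6a3, Loxl1 and Col14a1. It was most positive for Col15a1 at 1.53, Timp3 at 1.47, Col4a1 at 1.34 and Nid1 at 1.20. Markers of several cell types also had their extremes on control replicate 4. Control replicate 4 was the lowest control array for 13 of the 18 stellate cell and myofibroblast markers tested, though the highest for Acta2 at 4.39, for 8 of the 13 endothelial and for 4 of the 4 mesothelial markers, and it was the highest for 7 of the 9 neutrophil markers. The part of cell content in these values was not tested.

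**Figure D4:**
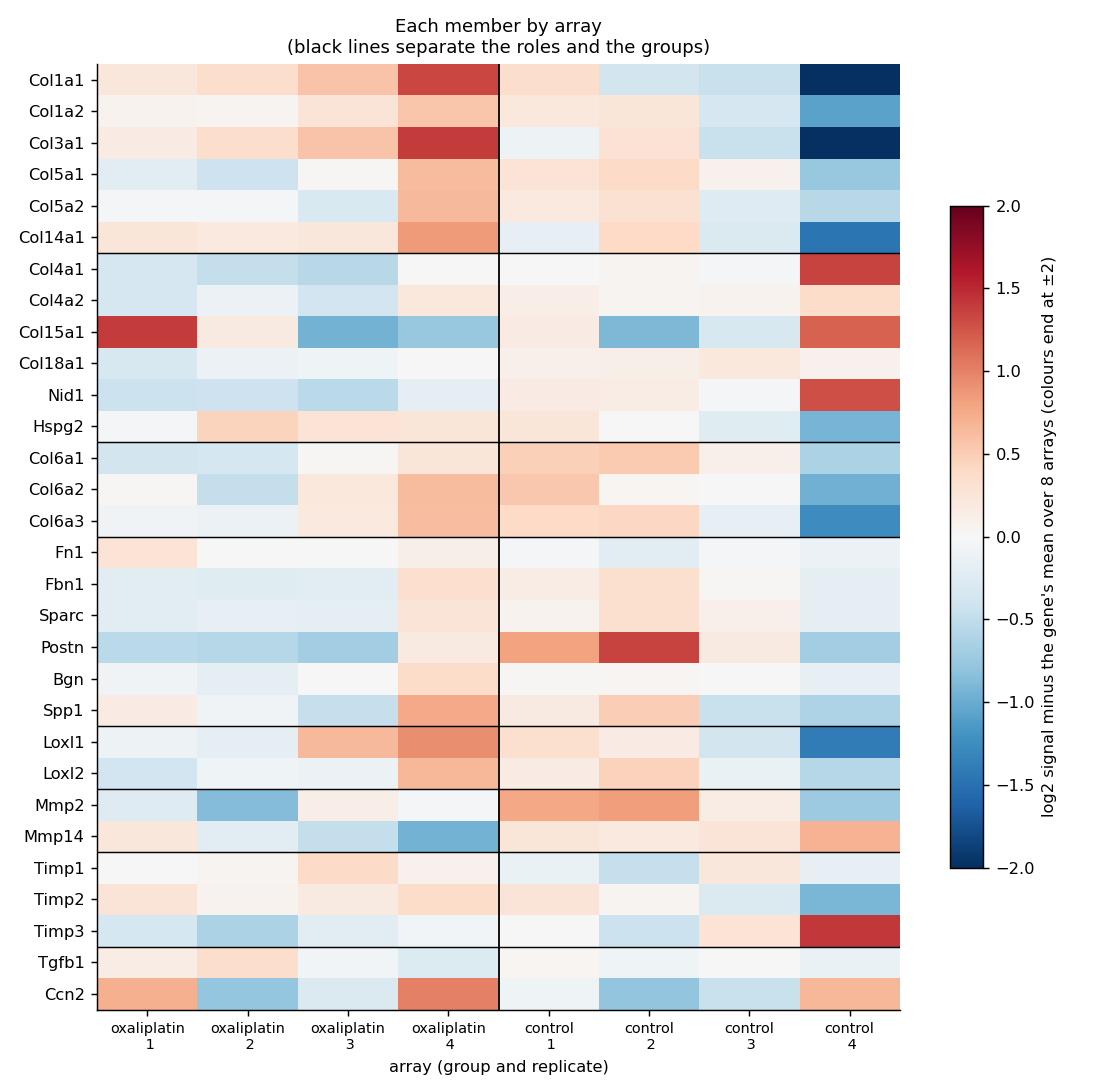
Log2 signal of each of the 30 tested members on each array minus its mean over the 8 arrays, with the 4 oxaliplatin arrays left of the 4 control arrays and black lines between the roles. Control replicate 4 is the bluest column for the fibrillar and type VI collagens and a red one for Col4a1, Col15a1, Nid1, Timp3 and Ccn2, and oxaliplatin replicate 4 is the reddest of its group for 23 members.

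Leaving out control replicate 4 gave 14 positive and 16 negative members, and 2 then passed, Nid1 and Postn, both lower, where 16.1% of all genes passed. Comparing only arrays of the first run name gave 18 positive and 12 negative members and 0 that passed, where 3.71% of all genes passed. In that comparison the 6 fibrillar members had a median of 0.78 and the 6 basement membrane members one of -0.43. It keeps oxaliplatin replicate 4, which was the highest oxaliplatin array for 23 members. Leaving out oxaliplatin replicate 4, with all other arrays kept, gave 14 positive and 16 negative members and 0 that passed. Of the 6 fibrillar members 4 were then positive, with a median of 0.49. Of the 6 basement membrane members 4 were negative, with a median of -0.37.

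**Figure D5:**
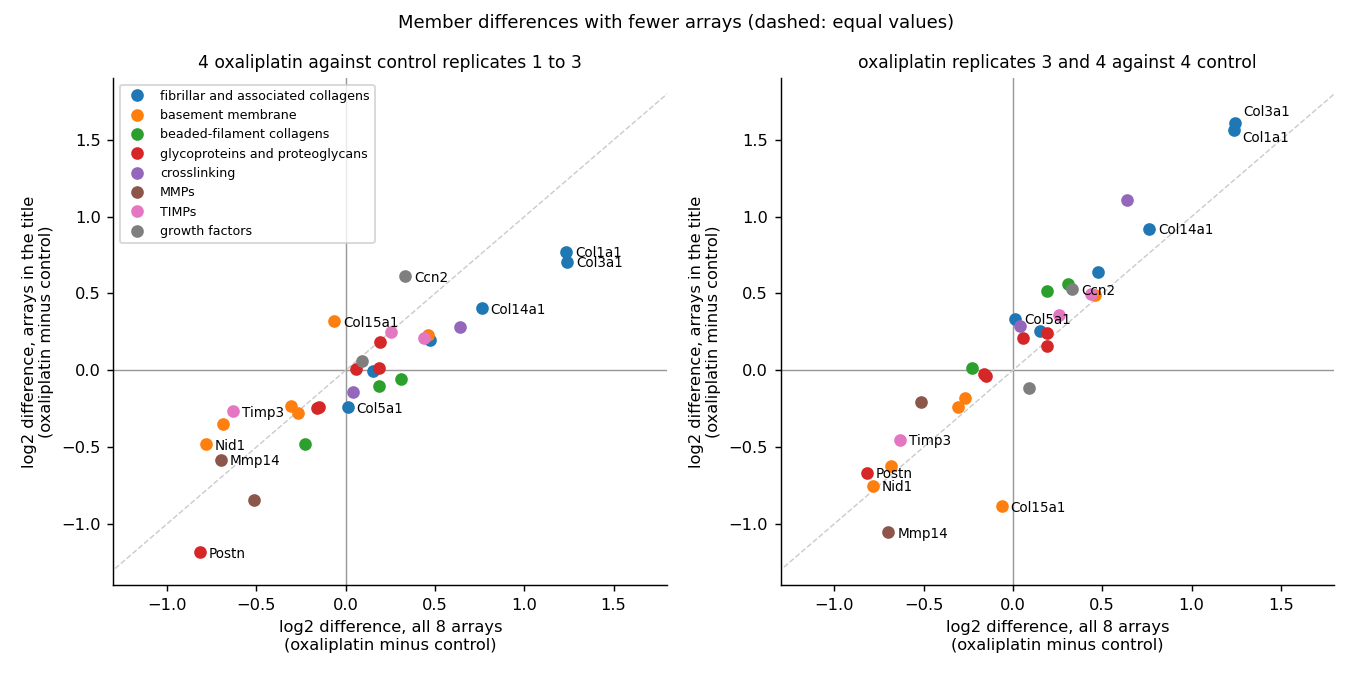
Log2 difference, oxaliplatin minus control, of each tested member with all 8 arrays (horizontal) against the same without control replicate 4 (left, vertical) or with the first run name only (right, vertical), coloured by role. Col1a1 and Col3a1 lie near 0.7 to 0.8 in the left panel and near 1.6 in the right one, and Postn at -1.19 and -0.67.

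Some genes of the wider matrix pathway passed the test, as did a share of all genes. In 7 lists of 196 further matrix genes, 149 could be tested, of which 20 rose, 12 fell and 117 did not pass. Their median difference was 0.03. Over all genes tested 6.99% rose and 11.6% fell, 18.6% in either direction. Of the other collagens, 13 were tested, 5 rose and 1 fell, with a median of 0.49. Col27a1, a fibrillar collagen of cartilage, stood at 1.91, 2.90, 3.66 and 3.53 on the oxaliplatin arrays, against 0.50, 0.54, -0.08 and 0.10 on the control arrays. Every oxaliplatin array lay above every control array, and the rise was 2.73 ± 0.37 (limma adjusted p = 0.00504). Col4a4, a type IV chain of specialised basement membranes, rose by 0.61 ± 0.14 and Col2a1, the cartilage collagen, by 0.49 ± 0.13, while Col9a2, a partner of Col2a1 in cartilage fibrils, fell by 0.62 ± 0.17 (limma adjusted p between 0.0246 and 0.0405).

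Of 22 genes for collagen folding, processing and crosslinking, 4 rose and 1 fell. Pcolce2, which enhances removal of the procollagen end piece, rose by 1.54 ± 0.24 (limma adjusted p = 0.00743), the lysyl hydroxylase Plod1 by 0.75 ± 0.18, the prolyl isomerase Ppib by 0.55 ± 0.11 and P4hb, a subunit of prolyl hydroxylase, by 0.38 ± 0.10. Ppib and P4hb also fold other secreted proteins, which hepatocytes make in bulk. Adamts14, a procollagen N-proteinase, fell by 0.82 ± 0.23. Second probes of Plod1 and P4hb differed by -0.23 and -0.18 and did not pass.

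Laminins are the other network of basement membranes, and of 10 chains tested 3 rose and 1 fell. Lama3, a chain of epithelial laminins, read 1.65, 2.35, 2.96 and 3.05 on the oxaliplatin arrays, against -1.65, -0.25, -0.86 and -2.26 on the control arrays. The groups lay far apart, and the rise was 3.76 ± 0.47 (limma adjusted p = 0.00375), with 3.35 and 0.31 at its other probes. Lama3 was dim in the control group, above background on 3 of its 4 arrays, so the size of the rise is uncertain. Its partner Lamb3, also above background on 3 control arrays, rose by 1.40 ± 0.38. Lama2 rose by 1.48 ± 0.43, with overlapping groups and above background on only 3 oxaliplatin arrays and 1 control array. Lama5, the main alpha chain of adult vessel and epithelial basement membranes, fell by 1.18 ± 0.13 (limma adjusted p = 0.00318). Among 29 other glycoproteins and proteoglycans 1 rose and 1 fell. Nid2, the close relative of Nid1, read 3.88, 3.92, 3.66 and 3.86 on the oxaliplatin arrays, against 3.15, 3.22, 2.92 and 2.998 on the control arrays. Its groups did not overlap, and it rose by 0.76 ± 0.11 (limma adjusted p = 0.00533), where Nid1 stood at -0.78. Dcn, decorin, which binds collagen fibrils, fell by 0.39 ± 0.10.

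Of 24 further proteases and inhibitors 4 rose and 2 fell. Adam17, the sheddase of membrane cytokines, rose by 0.59 ± 0.10, the plasminogen gene Plg, a hepatocyte product, by 0.32 ± 0.08, and Serpine2, an inhibitor of thrombin and plasmin, by 1.68 ± 0.43, while Adam15 fell by 0.68 ± 0.11. The other 2 probes of Adam17 and of Plg did not pass, at 0.17 and 0.09 for Adam17 and at -0.03 and 0.17 for Plg. Mmp7, a metalloproteinase outside the members, fell by 3.25 ± 0.92 with overlapping groups (limma adjusted p = 0.0423). It was above background on only 2 oxaliplatin arrays, and its other probe, at -2.40, did not pass (limma adjusted p over probes = 0.056). Of 30 TGF-beta pathway genes 2 rose and 5 fell. Ltbp4, which holds latent TGF-beta in the matrix, rose by 1.76 ± 0.42. Itgb6, an integrin chain that activates latent TGF-beta, fell by 2.55 ± 0.57 and was above background on only 2 oxaliplatin arrays. Itgb3, an integrin chain of platelets and vessels, fell by 2.12 ± 0.29. Ski, a repressor of SMAD signalling, rose by 0.97 ± 0.17 at its brightest probe, but another of its probes was called lower at -0.42. Of 21 matrix receptors, the collagen receptor chain Itga10 rose by 1.85 ± 0.24 and Itga1, another collagen receptor chain, fell by 0.46 ± 0.11, with 0.21 at its custom probe. These counts depended on single arrays and on the run name. Without control replicate 4 the pathway lists held 14 genes that rose and 10 that fell, without oxaliplatin replicate 3 they held 7 and 4, and with the run name in the fit 9 and 4.

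Markers of the cells that make or clear matrix were read beside these values. The counts below stand against 6.99% of all genes tested that rose and 11.6% that fell, 18.6% in either direction. Of 18 stellate cell and myofibroblast markers 0 rose and 1 fell, Cygb, the stellate cell globin, by 0.73 ± 0.13 (limma adjusted p = 0.0116), and their summed linear signal relative to the 75th percentile was 174 to 224 on the oxaliplatin arrays and 169 to 214 on the control arrays. Acta2, the smooth muscle actin of activated stellate cells, differed by -0.32 ± 0.18 (limma adjusted p = 0.229). Of 13 endothelial markers 0 rose and 3 fell, namely Lyve1 by 1.49 ± 0.26, Cd34 by 0.83 ± 0.10 and Vwf by 0.46 ± 0.12 (0.06 at its other probe), with sums of 405 to 507 on the oxaliplatin arrays and 450 to 520 on the control arrays. Of 17 monocyte and macrophage markers 3 rose and 1 fell, Csf1r by 1.47 ± 0.23, Cx3cr1 by 0.95 ± 0.24 and Lyz2 by 0.91 ± 0.25 upward and Marco by 2.26 ± 0.63 downward. Their sums were 756 to 1636 on the oxaliplatin arrays and 820 to 1637 on the control arrays. Bright genes weigh most in such a sum, Marco among them, with a mean of 8.61 on the control arrays and 6.35 on the oxaliplatin arrays. The median difference of the list was 0.36. Of 9 neutrophil markers only Lcn2 passed, falling by 3.55 ± 0.92, and the list's sum was 55.1 to 482 on the oxaliplatin arrays and 854 to 1402 on the control arrays. Lcn2 made up most of that gap: without it the sum was 37.9 to 328 on the oxaliplatin arrays and 162 to 408 on the control arrays, which overlapped. Of 6 platelet markers 3 fell, Itgb3, Pf4 and Itga2b, with sums of 12.7 to 17.7 on the oxaliplatin arrays and 36.8 to 109 on the control arrays. Itgb3 stands in both the platelet and the TGF-beta list. None of the 5 bile duct markers passed, with sums of 14.7 to 19.5 on the oxaliplatin arrays and 14.2 to 17.2 on the control arrays. None of the 4 mesothelial markers passed, with sums of 1.73 to 7.79 on the oxaliplatin arrays and 2.16 to 4.74 on the control arrays. Of 9 hepatocyte markers 4 rose, Alb, Cyp2e1, Serpina1a and Ttr, by 0.38 to 1.29, with sums of 11712 to 13061 on the oxaliplatin arrays and 10308 to 11325 on the control arrays, which did not overlap. No marker list stood at 0 in either group, and the part of cell content in the matrix values was not tested.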

How the data were processed

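Per the file headers, the authors read the scans with Agilent Feature Extraction 12.0.3.1 against mm9, while the submitters' processing notes name version 10.7 and limma. The deposited scanner files give a processed intensity per spot, background-corrected by the authors' software. The deposited series matrix gives log2 values of 46867 probes, whose centring and normalization between arrays are not given in the sources used here (column medians 5.76 to 5.83); it served as an alternative.

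Log2 of the processed intensity minus each array's 75th percentile over 149782 non-control probes was used. Spots flagged as outliers were left out, and a probe had to be well above background on 4 or more of the 8 arrays (54636 probes). Of 48257 probes with a RefSeq accession, 47985 were named through RefSeq; 145 catalogue probes kept the file's name. The brightest probe stood for a gene. Differences were tested with limma 3.58.1 (R 4.3.3; lmFit, eBayes, two-sided, 8 arrays, no covariate), adjusted by Benjamini-Hochberg over 13913 genes, or over probes where said, at 0.05. The fit was tested on simulated data. The number of arrays limits the precision.

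The series' design text calls the arrays biological replicates. Same-numbered arrays did not deviate together (correlations -0.32 to -0.08), so numbers did not pair them. The members, the lists and the motifs were chosen with earlier results of these data known. Members that separated the groups, differed by at least 1 on the log2 scale, or are types I, III and IV collagens, Fn1, Mmp2, Timp1 or Tgfb1 are given on all arrays. Postn, Mmp14 and Col14a1 were added after their values were seen, as were Col27a1, Lama3 and Nid2. Of each list up to 4 genes with the smallest adjusted p are named, or all that passed where these were 5 or fewer. Acta2, Col5a3 and Mmp7 were added. Alternatives were other normalizations, background correction, filters, probe choices, variance models, the series matrix, the replicate block, run names and each array left out.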

Additional observations from a re-analysis of the deposited data

Results flagged for a closer look

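Among 60 groups of 4 arrays (30 members in each of both groups), 6 held an array far from the other 3, where chance flags about 1 in 20 groups; 3 of the 6 were control replicate 4. On the log2 scale, Col14a1 stood at 5.24 on oxaliplatin replicate 4, against 4.58 to 4.64 on the other oxaliplatin arrays. Fbn1 stood at 2.79 on the same array, against 2.23 to 2.26, and Sparc at 4.64, against 4.17 to 4.23. Col4a1 stood at 4.42 on control replicate 4, against 3.05 to 3.13 on the other control arrays, Nid1 at 4.94, against 3.60 to 3.81, and Mmp14 at 7.32, against 6.83 to 6.88.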

How the results depend on the processing

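The 30 member differences were recomputed under 24 alternatives, except Col5a2 and Loxl1 with a filter on all 8 arrays, which they did not pass, and of 718 values 659 kept their direction and their side of the threshold, 19 came past it and 40 turned sign. Member calls appeared under few settings. Col18a1 was lower under quantile normalization (-0.40, limma adjusted p = 0.0198) and in the series matrix (-0.40, 0.0207), 1 call each. Normexp background correction called 1 higher, Col1a1 (0.78, 0.033), and 1 lower, Mmp14 (-0.90, 0.0205). The run name as a covariate called 1 lower, again Mmp14. Leaving out 1 array gave 0 members higher and 0 to 2 lower: Nid1 and Postn without control replicate 4, and Mmp14 without oxaliplatin replicate 1. Median centring called 14 lower and 0 higher; it moved the median of all genes to -0.71, and 2.32% of its calls were higher, against 37.6% in the fit reported. That share was 60.5% with the percentile over probes detected on all arrays, 50% under quantile normalization, 49.3% in the series matrix, 20.8% under normexp and 67.6% with no filter on dim probes.

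Signs turned under median centring for Col1a2 (-0.15), Col5a1 (-0.62), Col5a2 (-0.47), Hspg2 (-0.17), Col6a2 (-0.44), Col6a3 (-0.32), Fn1 (-0.44), Bgn (-0.57), Spp1 (-0.44), Loxl2 (-0.59), Timp1 (-0.37), Timp2 (-0.19), Tgfb1 (-0.54) and Ccn2 (-0.30). They turned with the mean of a gene's probes for Col18a1 (0.019), Col6a2 (-0.11), Fn1 (-0.29), Sparc (0.31) and Bgn (-0.11), under normexp for Col5a1 (-0.0050) and Loxl2 (-0.038), and with the detected percentile for Col15a1 (0.046). Under the run name covariate and under the first run name only, which give equal differences by construction, Col6a1 (0.016) and Tgfb1 (-0.12) turned. Leaving out 1 array gave ranges that crossed 0 for Bgn (-0.058 to 0.13), Col15a1 (-0.54 to 0.32), Col5a1 (-0.24 to 0.15), Col5a2 (-0.039 to 0.28), Col6a2 (-0.10 to 0.40), Col6a3 (-0.058 to 0.50), Loxl2 (-0.17 to 0.20), Spp1 (-0.033 to 0.39) and Tgfb1 (-0.011 to 0.20).

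All genes called were 973 higher and 1617 lower. They were 230 and 9687 under median centring, 2782 higher with no filter, 935 lower with the detected percentile, 2588 lower under normexp, 451 and 469 under the run name covariate, and 251 and 265 with the first run name only; leaving out 1 array gave 453 to 983 higher and 561 to 1497 lower, both lowest without oxaliplatin replicate 3. Pathway genes called, 20 and 12, were 7 and 73 under median centring, 34 higher with no filter, 6 lower with the detected percentile, 6 lower under quantile normalization, 9 and 4 with the run name, 5 and 2 with the first run name only, and 7 to 23 and 3 to 10 with 1 array left out. The replicate numbers do not pair the arrays; with the replicate block 266 genes were higher and 263 lower, pathway genes 6 and 3, members 0 and 0. The causes were not tested. Signal over background limits Lox, Mmp9, Mmp12, Mmp13 and Tgfb2, which have no test.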
